A study of Mus musculus with 12 samples.

Results

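The 10 genes described here give and carry cell death signals, and their RNA was measured by bulk RNA-sequencing in 12 subcutaneous mouse tumors grown from LLC1-shLkb1 cells. They are the death ligands Tnfsf10, Fasl and Tnf, the receptors Tnfrsf10b, Fas, Tnfrsf1a and Tnfrsf1b, and the effectors Casp8, Mlkl and Casp1. The 10 genes were chosen from a list of named members out of 34678 gene symbols, with earlier results of these same tumors known, and all 10 passed the filter on low values that left 15350 genes for testing. Their differences are therefore descriptions of where each gene stands among all tested genes, and no adjusted p below is independent support for the list.

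LLC1 is a Lewis lung carcinoma line, and LLC1-shLkb1 cells carry an shRNA against Lkb1 (gene symbol Stk11), the kinase lost in many lung adenocarcinomas. Every group shares this knockdown and the C57BL/6 host, so no tumor with intact Lkb1 was available for comparison. Tumors were taken 2 weeks after treatment began, 3 per arm. The arms were vehicle (control IgG), palbociclib (an oral inhibitor of the cell cycle kinases CDK4 and CDK6, given on the first days of each weekly cycle), anti-PD-1 (clone RMP1-14, an antibody against the T cell checkpoint receptor PD-1, given by injection) and combination (both agents). The study counts its samples as biological replicates, and nothing in the labels ties a tumor to a mouse, so p-values measure the spread between these tumors. All tumors grew from 1 knockdown line.

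Death ligands of the TNF family bind receptors with a cytoplasmic death domain on a neighboring cell. TRAIL (Tnfsf10) binds its receptor DR5 (Tnfrsf10b), Fas ligand (Fasl) binds Fas, and TNF binds TNFR1 (Tnfrsf1a) and TNFR2 (Tnfrsf1b), of which TNFR2 lacks a death domain. Receptor complexes recruit caspase-8 (Casp8), which starts apoptosis, and when caspase-8 is blocked they can lead to necroptosis through the membrane-permeabilizing pseudokinase Mlkl, while caspase-1 (Casp1) is the protease of inflammasomes that cleaves interleukin-1β, interleukin-18 and gasdermin D. T cells, natural killer cells and macrophages are major sources of these ligands, and Tnfsf10, Casp1, Mlkl and Zbp1 are known as genes that interferons can raise.

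The authors' values are FPKM (fragments per kilobase of transcript, scaled to the mapped fragments of each library), which correct for gene length and depth. Summed FPKM ran from 261027 to 280080 per tumor and 17318 to 18499 genes were above 0. The steps between low FPKM values gave relative depths of 0.914 to 1.25, a 1.36-fold range. For Tnfsf10, Tnfrsf10b, Fas, Fasl and Tnf the values came out as whole fragments (within 0.1), which gave the fragment numbers below and their exact Poisson 95% intervals. These cover counting error only. Pearson's r between pairs of tumors lay between 0.934 and 0.987 on the log2 scale. Stk11 itself lay between 7.9 and 11.5 FPKM in all 12 tumors, which checks no arm because the arms share the knockdown and the tumors hold host cells.

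Arms were compared on the scale log2(FPKM + 0.1) with limma, each arm having its own mean, adjusted by the Benjamini-Hochberg method over all 15350 tested genes, and a gene is called at an adjusted p under 0.05. A fold is that of FPKM + 0.1, which understates the change of low genes. Differences are on this log2 scale with their SE, and levels are in FPKM with their SD. The palbociclib effect is the mean of 2 differences, palbociclib minus vehicle and combination minus anti-PD-1, which share no tumors. The interaction is the second of these differences minus the first.

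Stretches of promoter sequence are given first, because interferon-stimulated genes stand beside the ligand result below. Both read 5′ to 3′ on the gene's strand, are taken from RefSeq (GRCm38.p6) and end at the last base before the gene start annotated by GENCODE. For Tnfsf10 that start lies upstream of the RefSeq start, so 201 of the 250 bases searched are shown. Tnfsf10, the one called gene, is shown from chr3:27316827-27317027 (plus strand), and Tnfrsf1b, the one gene of the set with an interferon-stimulated response element core, from chr4:145246871-145247120 (minus strand). Capitals mark matches to GAAANNGAA (the response element core) or TTCNNNGAA (the GAS element of interferon-responsive genes), searched on both strands.
Tnfsf10: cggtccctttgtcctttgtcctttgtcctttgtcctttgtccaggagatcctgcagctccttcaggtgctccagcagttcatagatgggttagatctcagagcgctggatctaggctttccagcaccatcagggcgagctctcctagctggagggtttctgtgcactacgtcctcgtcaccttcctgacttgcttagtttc
Tnfrsf1b: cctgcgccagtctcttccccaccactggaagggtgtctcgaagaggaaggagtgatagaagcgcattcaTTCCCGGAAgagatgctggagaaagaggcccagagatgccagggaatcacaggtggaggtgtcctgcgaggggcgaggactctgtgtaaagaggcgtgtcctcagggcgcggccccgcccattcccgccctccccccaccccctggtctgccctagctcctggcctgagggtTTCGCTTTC

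The Tnfsf10 stretch holds neither motif. In Tnfrsf1b the core begins 9 bases and the GAS match 181 bases before the start. Over the 250 bases upstream of each RefSeq start, 9 of the 10 genes are in the table (Tnfrsf10b is the exception), and 1 of these 9 holds the core against 7.13% of all 32851 promoter windows. The GAS motif was in 3 of 9, at position -93 in Fas, -244 in Tnfrsf1a and -181 in Tnfrsf1b, against 7.02% of windows. The NF-kB consensus was in 0 of 9, against 3.9%. A match is a run of letters and not a bound site, and a missing match says only that the letters are not in this window.

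Tnfsf10, which encodes TRAIL, was the one gene of the 10 that rose past the threshold, and it rose with palbociclib. In vehicle tumors Tnfsf10 was at 0.816, 0.319 and 0.762 FPKM. Palbociclib tumors had 2.62, 2.51 and 4.38 FPKM. Anti-PD-1 tumors had 1.31, 0.807 and 0.72 FPKM and combination tumors 1.97, 1.41 and 2.22 FPKM. All 3 palbociclib tumors were above all other tumors, and all 3 combination tumors were above all vehicle and anti-PD-1 tumors, while the vehicle and anti-PD-1 ranges overlapped. How many of all tested genes have this order of tumors was not counted. The arm means were 0.632 ± 0.273 FPKM in vehicle, 0.946 ± 0.319 in anti-PD-1, 1.87 ± 0.414 in combination and 3.17 ± 1.05 in palbociclib (SD, n = 3 each).

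These Tnfsf10 levels rested on 28 to 413 fragments per tumor. The vehicle tumor with 28 fragments (replicate 2) had a counting interval of 0.212 to 0.461 FPKM, which lay below the intervals of the other vehicle tumors (from 0.611 FPKM upward). The lowest palbociclib interval began at 2.19 FPKM. Tnfsf10 spans chr3:27317028-27342427 on the plus strand (GRCm38, GENCODE M21).

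Palbociclib alone raised Tnfsf10 by 2.20 ± 0.34 on the log2 scale (SE), a 4.58-fold difference with a 95% interval of 2.72 to 7.74 (limma, adjusted p = 0.0386). In this comparison 0.143% of the 15350 tested genes were called. On top of anti-PD-1 the difference was 0.93 ± 0.34, with an adjusted p of 0.354, where 0.00651% of genes were called. The palbociclib effect was 1.56 ± 0.24, a 2.96-fold difference (interval 2.04 to 4.28, limma adjusted p = 0.0399), with 0.313% of genes called. The difference between both palbociclib differences, -1.27 ± 0.49, had an unadjusted p of 0.0243 and an adjusted p of 0.866 in limma, where 0% of genes were called. A smaller Tnfsf10 difference in the presence of anti-PD-1 is thus not established here.

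The Tnfsf10 call was close to the threshold. The direction held in every leave-one-out fit, with the palbociclib minus vehicle difference between 1.83 and 2.40 and the palbociclib effect between 1.38 and 1.68. The adjusted p stayed under 0.05 in 2 of 12 such fits for palbociclib against vehicle (without anti-PD-1 replicate 1 or combination replicate 2; range 0.0384 to 0.248) and in 3 of 12 for the palbociclib effect (those same tumors, and vehicle replicate 1; range 0.0145 to 0.136).

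Anti-PD-1 alone gave a Tnfsf10 difference of 0.56 ± 0.34 (limma adjusted p = 0.659), in a comparison with 0% of genes called. Combination against vehicle gave 1.49 ± 0.34 (adjusted p = 0.184), with 0.013% of genes called. Combination against palbociclib gave -0.71 ± 0.34, with an interval of -1.47 to 0.05 (adjusted p = 1), with 0.00651% of genes called.

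**Figure D1:**
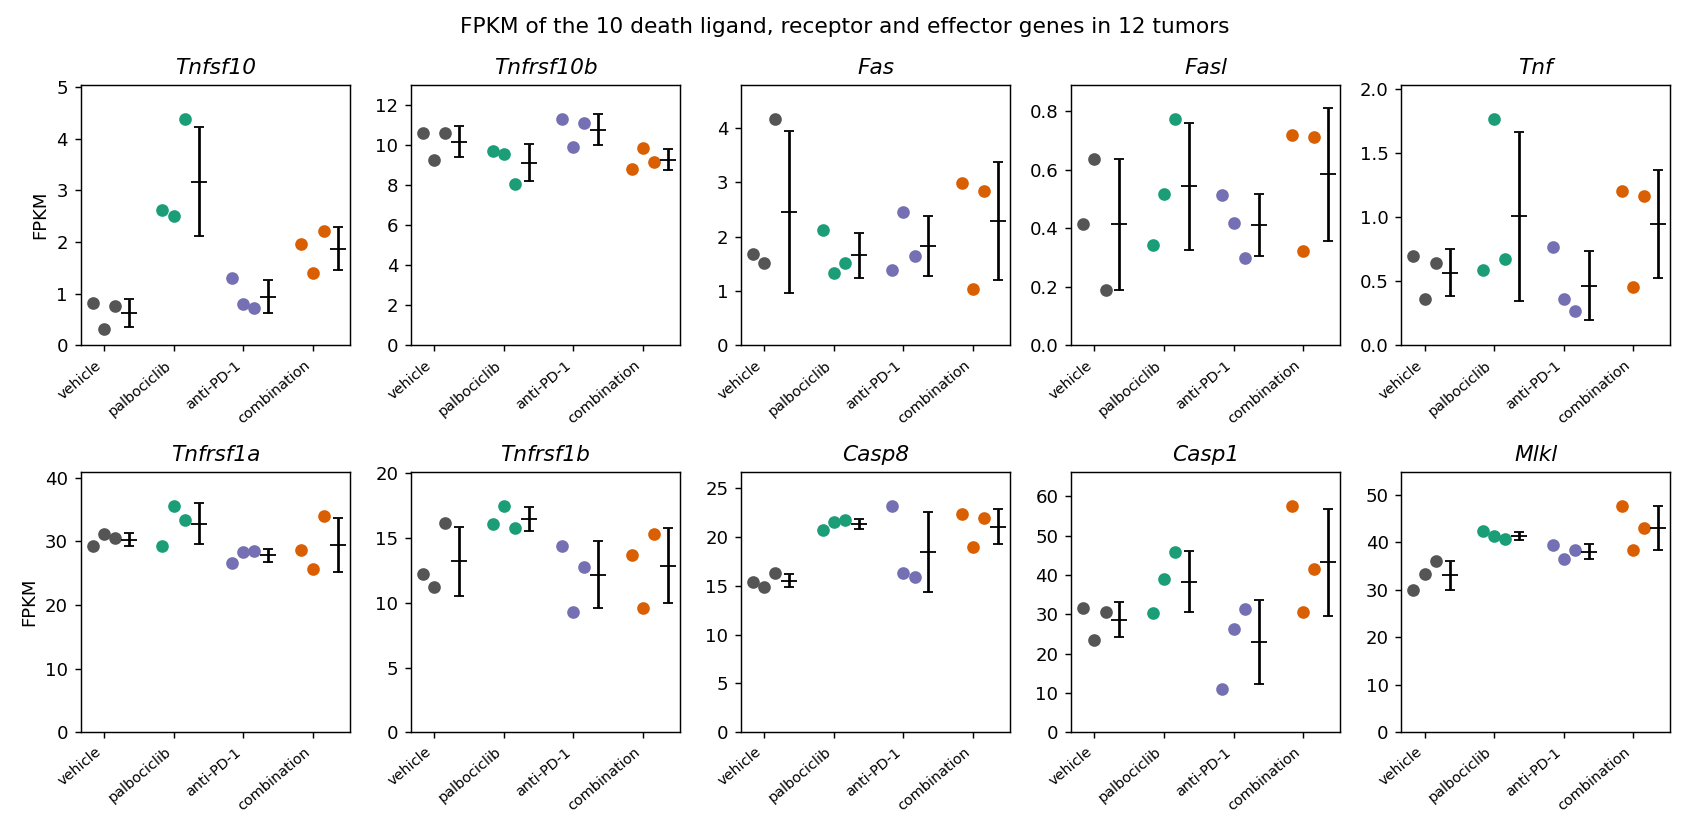
FPKM of each of the 10 genes in each tumor, by arm on the horizontal axis (dots are single tumors; the black mark and bar are the mean and SD of 3). The 3 palbociclib dots of Tnfsf10 lie between 2.51 and 4.38 FPKM, above all other tumors, whereas the arms of Fas, Fasl and Tnf overlap.

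Fasl, the ligand that cytotoxic T cells and natural killer cells use against Fas-bearing cells, was the lowest of the 10 genes. It was at 0.413, 0.637 and 0.189 FPKM in vehicle tumors. Palbociclib tumors had 0.342, 0.517 and 0.773 FPKM. Anti-PD-1 tumors had 0.513, 0.418 and 0.3 FPKM and combination tumors 0.719, 0.323 and 0.711 FPKM. All 4 arms overlapped. A single tumor gave only 9 to 30 Fasl fragments, so that the lowest value (0.189 FPKM, vehicle replicate 3) had a counting interval of 0.0866 to 0.36 and the highest (0.773 FPKM, palbociclib replicate 3) one of 0.521 to 1.1. The palbociclib effect was 0.38 ± 0.28 (limma adjusted p = 0.464), with an interval of -0.25 to 1.0. In folds this interval runs from 0.843 to 2. Without vehicle replicate 3 the Fasl effect was 0.20, and palbociclib minus vehicle went from 0.37 to 0.01.

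Tnf, a cytokine of activated macrophages and T cells, was at 0.699, 0.362 and 0.648 FPKM in vehicle tumors. The palbociclib tumors had 0.587, 1.77 and 0.674 FPKM. Anti-PD-1 tumors were at 0.772, 0.362 and 0.266 FPKM and combination tumors at 1.21, 0.459 and 1.17 FPKM. Palbociclib replicate 2 was the highest of the 12 tumors, with 80 fragments against 15 to 59 elsewhere, and the other palbociclib tumors lay within the vehicle range. In the combination arm replicates 1 and 3 were above all anti-PD-1 tumors and replicate 2 was not. The palbociclib effect on Tnf was 0.75 ± 0.34, with an unadjusted p of 0.0484 and an adjusted p of 0.24 in limma. Palbociclib minus vehicle was 0.62 ± 0.48 for Tnf and 0.16 without palbociclib replicate 2.

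The mean FPKM of each receptor over the 12 tumors was above that of its ligand, and no receptor was called. Tnfrsf1a (TNFR1) was at 29.2, 31.1 and 30.5 FPKM in vehicle tumors and at 29.3, 35.6 and 33.4 FPKM in palbociclib tumors. It was at 26.6, 28.3 and 28.5 FPKM with anti-PD-1 and at 28.6, 25.7 and 34 FPKM in the combination. The highest tumor was only 1.39 times the lowest, against 6.64 times for Tnf. The palbociclib effect on Tnfrsf1a was 0.09 ± 0.08, with an interval of -0.08 to 0.26 (limma adjusted p = 0.522).

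Tnfrsf1b (TNFR2, found mainly on leukocytes) was at 12.2, 11.2 and 16.2 FPKM in vehicle tumors and at 16.1, 17.5 and 15.8 FPKM in palbociclib tumors. It was at 14.4, 9.32 and 12.8 FPKM with anti-PD-1 and at 13.7, 9.63 and 15.3 FPKM in the combination. All anti-PD-1 and combination tumors were below all palbociclib tumors, and of the vehicle tumors 1 (16.2 FPKM) lay within the palbociclib range. How many of all tested genes show this pattern was not counted. The palbociclib effect was 0.21 ± 0.14 (interval -0.11 to 0.53, limma adjusted p = 0.429).

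Tnfrsf10b (DR5, the death-inducing TRAIL receptor of the mouse) spanned 1.4 times from the lowest to the highest tumor, and its values leaned the other way from those of its ligand. Vehicle tumors had 10.6, 9.27 and 10.6 FPKM and palbociclib tumors 9.72, 9.57 and 8.07 FPKM. Anti-PD-1 tumors had 11.3, 9.91 and 11.1 FPKM and combination tumors 8.82, 9.85 and 9.13 FPKM. Every combination tumor was below every anti-PD-1 tumor, though 9.85 and 9.91 FPKM nearly met, and each value rested on 424 to 687 fragments. The palbociclib effect was -0.18 ± 0.07 (unadjusted p = 0.0303, limma adjusted p = 0.202).

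Fas, the receptor of Fas ligand, was at 1.68, 1.51 and 4.16 FPKM in vehicle tumors. It was at 2.12, 1.34 and 1.51 FPKM with palbociclib. Anti-PD-1 tumors had 1.39, 2.45 and 1.65 FPKM and combination tumors 2.98, 1.04 and 2.84 FPKM. Vehicle replicate 3 stood alone, with 152 fragments and a counting interval of 3.53 to 4.88 FPKM, above the intervals of 9 of the other 11 tumors and meeting those of combination replicates 1 (2.38 to 3.68 FPKM) and 3 (2.26 to 3.53 FPKM). That tumor also had the highest summed FPKM of 5 neutrophil markers (504, against 12.9 to 254 in the other tumors), and the part this has in the Fas value was not tested. The palbociclib effect on Fas was -0.10 ± 0.31 (interval -0.79 to 0.58, limma adjusted p = 0.875), and it was 0.13 without combination replicate 2. Palbociclib minus vehicle was -0.42 ± 0.44 for Fas and 0.03 without vehicle replicate 3. Gm27818, a small RNA gene on the same strand, lies within Fas.

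Casp8 and Mlkl were higher in all 3 palbociclib tumors than in any vehicle tumor, as were 12.9% of all tested genes. Their adjusted p was above the threshold. Casp8, the initiator caspase of death receptors, was at 15.4, 14.9 and 16.3 FPKM in vehicle tumors and at 20.7, 21.5 and 21.7 FPKM in palbociclib tumors. Anti-PD-1 tumors had 23.2, 16.3 and 15.9 FPKM and combination tumors 22.3, 19 and 21.9 FPKM. Anti-PD-1 replicate 1 was the highest of all 12 tumors and the other 2 of its arm were within the vehicle range. Palbociclib minus vehicle was 0.45 ± 0.13 (interval 0.16 to 0.75, unadjusted p = 0.0059, limma adjusted p = 0.23). The palbociclib effect was 0.33 ± 0.09 (limma adjusted p = 0.114), and without anti-PD-1 replicate 1 it was 0.42 with an adjusted p of 0.0208. That fit called 758 of all tested genes, against 48 with all tumors.

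Mlkl, the executioner of necroptosis, had the highest mean of the 10 genes. Vehicle tumors were at 29.9, 33.3 and 36 FPKM and palbociclib tumors at 42.3, 41.3 and 40.6 FPKM. Anti-PD-1 tumors were at 39.4, 36.4 and 38.3 FPKM and combination tumors at 47.7, 38.3 and 43 FPKM. All 9 treated tumors were above all 3 vehicle tumors, by as little as 36.4 against 36 FPKM. The share of all tested genes with this pattern was not counted. Palbociclib minus vehicle was 0.33 ± 0.10 (unadjusted p = 0.00685, limma adjusted p = 0.241), anti-PD-1 minus vehicle was 0.20 ± 0.10 (adjusted p = 0.609) and combination minus vehicle was 0.38 ± 0.10 (adjusted p = 0.184). The 3 comparisons share the vehicle tumors.

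Casp1, the inflammasome protease, varied most among the effectors. It was at 31.7, 23.5 and 30.6 FPKM in vehicle tumors and at 30.2, 38.9 and 45.8 FPKM in palbociclib tumors. Anti-PD-1 tumors had 11, 26.3 and 31.4 FPKM and combination tumors 57.6, 30.6 and 41.5 FPKM. Anti-PD-1 replicate 1, the same tumor that had the highest Casp8, had by far the lowest Casp1. Combination minus anti-PD-1 was 1.0 ± 0.35 (unadjusted p = 0.0165, limma adjusted p = 0.34), and it was 0.54 without that tumor. For Casp1, palbociclib minus vehicle was 0.41 ± 0.35 (adjusted p = 0.586). The sum of 4 leukocyte markers in that low tumor was 63 FPKM, the highest of its arm. Its sum of epithelial markers, 281 FPKM, was the highest of all tumors, and its sum of fibroblast markers, 146 FPKM, the lowest. The part that these cells have in the Casp1 value was not tested.

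**Figure D2:**
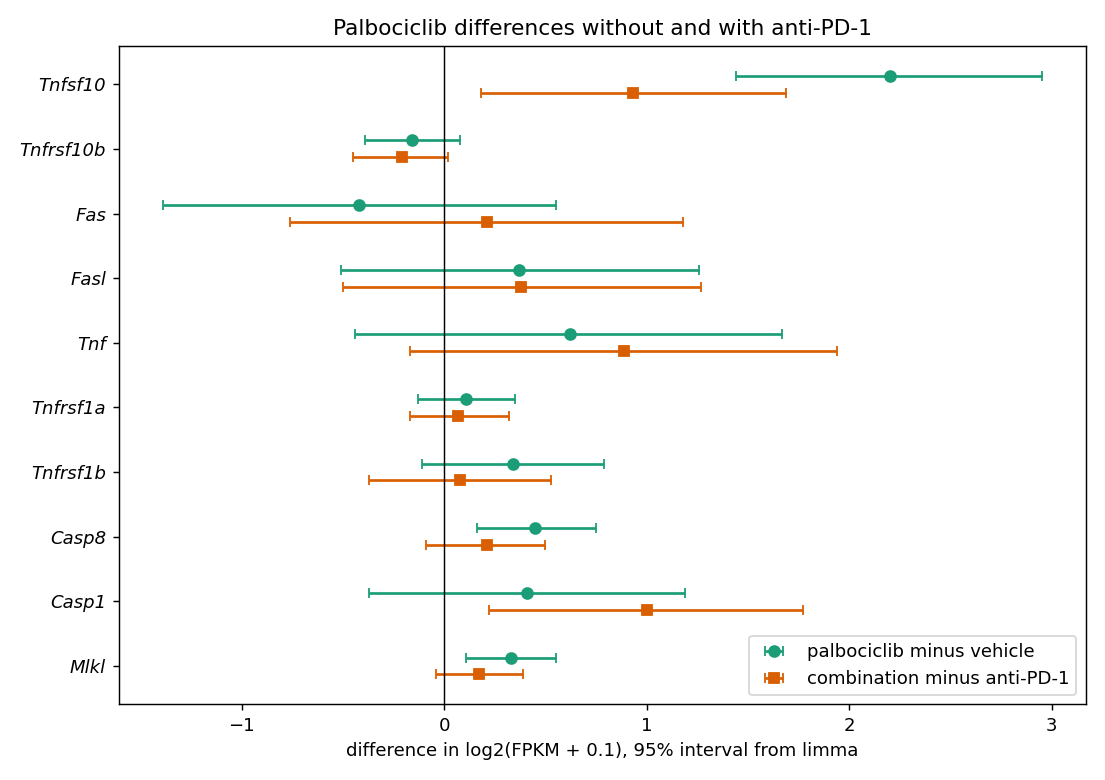
Difference in log2(FPKM + 0.1) of each gene (dots and squares) with its 95% interval from limma, for palbociclib minus vehicle and for combination minus anti-PD-1, which share no tumors. Tnfsf10 lies at 2.20 and 0.93, and the intervals of Fas, Fasl, Tnf, Tnfrsf10b, Tnfrsf1a and Tnfrsf1b cross 0 in both.

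Across the 10 genes, 8 differences were above 0 for palbociclib against vehicle, as were 59.1% of all tested genes. Their median was 0.36, against 0.07 over all tested genes. For combination against anti-PD-1, 9 were above 0 (57.4% of all genes), with a median of 0.21 against 0.05. For the palbociclib effect 8 were above 0 (59.8% of all genes), with a median of 0.29 against 0.06. For anti-PD-1 against vehicle 5 were above 0 (44% of all genes) and the median was -0.02 (all genes -0.03). For combination against vehicle 6 were above 0 (53.6%) and the median was 0.41 (0.03). For combination against palbociclib 5 were above 0 (41.7%) and the median was 0.00 (-0.04). The interaction had 4 above 0 (48.2%) and a median of -0.05 (-0.01).

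At an unadjusted p under 0.05, 3 of the 10 genes passed for palbociclib against vehicle (Tnfsf10, Casp8 and Mlkl), where 13.8% of all tested genes did. For combination against vehicle the same 3 genes passed, where 17% of all genes did. Combination against anti-PD-1 had 2 (Tnfsf10 and Casp1) beside 11.8%, and the palbociclib effect 6 (Tnfsf10, Casp8, Casp1, Mlkl, Tnf and, lower, Tnfrsf10b) beside 20.5%. Anti-PD-1 against vehicle and combination against palbociclib had 0 beside 8.4% and 4.52%, and the interaction had 1 (Tnfsf10) beside 5.73%. These are counts over genes listed with results known and nothing is read from them.

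In the same way, 3 genes (Tnfsf10, Casp8 and Mlkl) were higher in all 3 palbociclib tumors than in all 3 vehicle tumors, as were 12.9% of all genes, and 0 were lower, as were 6.47%. In the combination against anti-PD-1, 1 gene was higher without overlap (Tnfsf10; 11.4% of all genes) and 1 was lower (Tnfrsf10b; 7.49%).

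Genes of the surrounding pathways were taken as whole lists. Beside their counts, 59.8% of all tested genes had a palbociclib effect above 0. Of 16 interferon-stimulated genes, all 16 had a palbociclib effect above 0, with a median of 0.77, and 3 rose past the threshold, which 0.313% of all tested genes passed in either direction. The effect averages unlike differences, since for palbociclib against vehicle all 16 were above 0 with a median of 1.41, and for combination against anti-PD-1 11 of 16 were, with a median of 0.09. Among them were Ifit2, an inhibitor of viral translation (0.85 ± 0.14, limma adjusted p = 0.0399), and Gbp2, an interferon-γ-inducible GTPase (1.79 ± 0.31, adjusted p = 0.0462). Ifit2 was at 11.2 ± 0.316 FPKM in vehicle, 27.3 ± 8.28 in palbociclib, 12.8 ± 2.14 in anti-PD-1 and 17.7 ± 2.55 in combination tumors (SD, n = 3 each), the same order of arms as Tnfsf10. Gbp2 had another order, with 30.9 ± 12.9 FPKM in vehicle, 104 ± 11.6 in palbociclib, 28.5 ± 5.72 in anti-PD-1 and 108 ± 58.7 in combination tumors. Of the 16 genes, 12 had an interaction below 0 at an unadjusted p under 0.05 (median -1.24) and 0 were called. Over all tested genes, 5.73% passed that unadjusted threshold in either direction.

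The summed FPKM of these 16 genes moved with Tnfsf10. It lay between 213 and 263 in vehicle, 465 and 941 in palbociclib, 256 and 345 in anti-PD-1 and 365 and 490 in combination tumors. The tumor with the highest sum (palbociclib replicate 3) also had the highest Tnfsf10, and the tumor with the lowest sum (vehicle replicate 2) the lowest.

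Summed markers of immune cells also differed between tumors, though 0 markers of the T cell, macrophage, natural killer cell and neutrophil lists were called by limma in any comparison. For the palbociclib effect 7 of 7, 4 of 6 and 2 of 6 of the first 3 lists were higher and 3 of 5 neutrophil markers lower at an unadjusted p under 0.05. Over all tested genes, 20.5% passed that threshold in either direction. The sum of 7 T cell markers was 1.57 to 6.7 FPKM in vehicle, 7.27 to 14.8 in palbociclib, 1.65 to 3.85 in anti-PD-1 and 4.33 to 14 in combination tumors, and all 7 had a palbociclib effect above 0. The sum of 6 macrophage markers was 110 to 578, 460 to 758, 127 to 441 and 334 to 767 FPKM in the same order, and that of 6 natural killer cell markers 3.68 to 6.4, 5.96 to 12.1, 3.25 to 4.31 and 3.57 to 8.91 FPKM. The vehicle and palbociclib ranges overlapped for both lists. Neutrophil marker sums were 29.4 to 504, 13.8 to 30, 43.6 to 254 and 12.9 to 80 FPKM. The sum of 4 leukocyte markers was 42.4 to 60.8 FPKM in vehicle, 68.4 to 91 in palbociclib, 37.8 to 63 in anti-PD-1 and 41.8 to 88.5 in combination tumors. Epithelial markers, the lineage of the carcinoma line, gave 84.3 to 153, 108 to 148, 122 to 281 and 72.8 to 97.9 FPKM, and endothelial markers 12.5 to 26.3, 11.2 to 13, 15.5 to 27.6 and 9.88 to 13.3 FPKM, both lower in all combination than in all anti-PD-1 tumors. The epithelial sum is almost all Krt8 (mean 124 FPKM, against 0.38 for Epcam, 1.04 for Krt18 and 0.41 for Krt19). The endothelial sum is mostly Cdh5 and Pecam1 (means 9.48 and 4.37 FPKM, against 1.17 for Kdr and 0.366 for Tek). The macrophage sum is mostly C1qb and C1qa (means 175 and 164 FPKM, against at most 50.6 for any other marker of its list). The neutrophil sum is mostly S100a9 and S100a8 (means 80.6 and 22.6 FPKM, against at most 4.65 for any other marker of its list). All arms overlapped in B cell (0.757 to 2.29 FPKM over all tumors) and dendritic cell markers (0.251 to 2.17), and fibroblast markers (146 to 436) were lower in all anti-PD-1 than in all vehicle tumors. The part that these cells have in the Tnfsf10, Casp1, Casp8 and Mlkl values was not tested. In bulk tumors more cells of a type and more RNA per cell cannot be told apart.

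Tissue around the tumor also differed between tumors. Summed markers of skin reached 328 FPKM in palbociclib replicate 2 and at most 1.07 elsewhere. Adipose markers reached 271 FPKM in combination replicate 1 and 111 in palbociclib replicate 1 (at most 11.1 elsewhere), and skeletal muscle markers 147 in palbociclib replicate 3, 143 in combination replicate 2 and 51.1 in vehicle replicate 1 (at most 9.73 elsewhere). By arm, adipose sums were 1.24 to 4.4 FPKM in vehicle, 5.47 to 111 in palbociclib, 0.813 to 4.75 in anti-PD-1 and 1.16 to 271 in combination tumors. The combination range overlapped that of every other arm. For the palbociclib effect 3 of the 4 adipose markers were higher at an unadjusted p under 0.05, and 0 were called. That unadjusted threshold was passed by 20.5% of all tested genes in either direction. The part of these tissues in the Tnfsf10 values was not tested. For palbociclib against vehicle, the limma adjusted p of the Tnfsf10 difference was 0.147, 0.062 and 0.248 without palbociclib replicates 1, 2 and 3. It was 0.0578 without vehicle replicate 1, and 0.0644 and 0.0398 without combination replicates 1 and 2. Without each of the other tumors it lay between 0.0384 (anti-PD-1 replicate 1) and 0.132 (vehicle replicate 2).

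**Figure D3:**
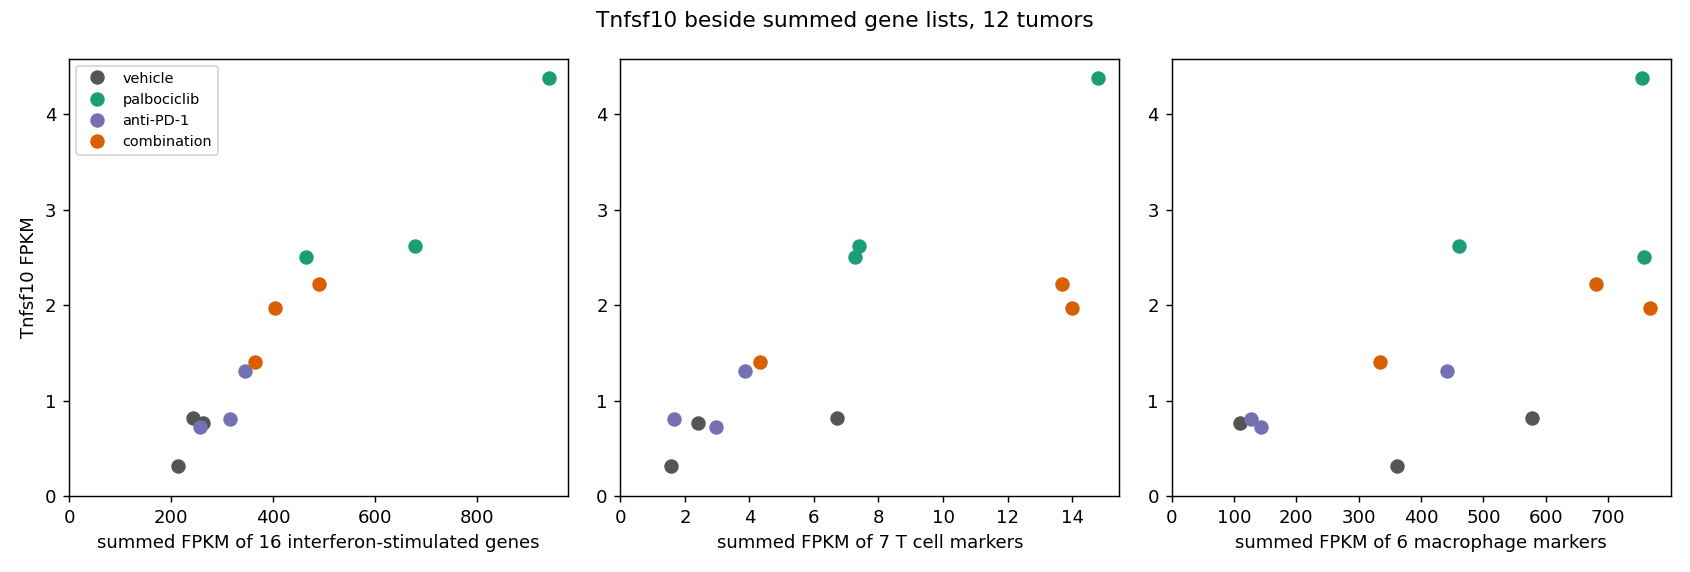
FPKM of Tnfsf10 (vertical axis) in each of the 12 tumors against the summed FPKM of 16 interferon-stimulated genes, 7 T cell markers and 6 macrophage markers, colored by arm. Vehicle tumors lie at the lower left of the interferon panel (sums of 213 to 263) and the palbociclib tumor with a sum of 941 has the highest Tnfsf10, 4.38 FPKM.

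In the other pathway lists no gene was called for the palbociclib effect. Of 19 genes of extrinsic death signaling 14 were above 0 with a median of 0.09, and 3 higher and 1 lower had an unadjusted p under 0.05, as did 20.5% of all tested genes. The highest was Zbp1, a sensor of Z-form nucleic acid that can start necroptosis, at 1.46 ± 0.29 (limma adjusted p = 0.0654), from 3.69 ± 1.73 FPKM in vehicle to 13.5 ± 4.1 in palbociclib, 4.46 ± 1.55 in anti-PD-1 and 9.28 ± 3.67 in combination tumors. The adaptor Fadd was at 0.26 ± 0.14 and the necroptosis kinase Ripk3, which activates Mlkl, at 0.35 ± 0.19. The kinase Ripk1 was at 0.15 ± 0.11 and the caspase-8 inhibitor Cflar at 0.04 ± 0.23. Tradd, the adaptor of TNFR1, was at 0.26 ± 0.10 (limma adjusted p = 0.195). Tnfaip3, which encodes the NF-kB inhibitor A20, was at -0.65 ± 0.28 (adjusted p = 0.221).

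Among 14 tested of 16 other ligands, receptors and sheddases of the TNF family, 9 were above 0 and the median was 0.10. Ltb, the lymphotoxin of lymphocytes, was at 1.12 ± 0.30 (limma adjusted p = 0.103), with 0.368 ± 0.184 FPKM in vehicle and 0.94 ± 0.283 in palbociclib tumors. Tnfrsf21, the death receptor DR6, was at 0.38 ± 0.15 (adjusted p = 0.199) and Tnfrsf12a, the receptor of TWEAK, at 0.56 ± 0.25 (adjusted p = 0.24). Of 11 tested inflammasome and pyroptosis genes 9 were above 0 with a median of 0.28. Pycard, the adaptor that joins sensors to caspase-1, was at 1.40 ± 0.40 (adjusted p = 0.112), Gsdmd, which encodes the pore-forming substrate of caspase-1, at 0.37 ± 0.14 (adjusted p = 0.189), and Il18, a cytokine substrate of caspase-1, at 0.35 ± 0.13 (adjusted p = 0.172). Il1b, the other cytokine substrate of caspase-1 in the list, was at -1.71 ± 0.75 (adjusted p = 0.23), the difference farthest from 0 among the 11. The sensor Nlrp3 was at 0.01 ± 0.43.

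Of 14 genes of the mitochondrial pathway 10 were above 0 with a median of 0.19. Casp9, the initiator caspase of this pathway, had the smallest p, at 0.43 ± 0.13 (limma adjusted p = 0.124), and the anti-apoptotic Bcl2a1b had the highest difference, at 1.04 ± 0.38 (adjusted p = 0.169), while the pro-apoptotic Bad was at 0.29 ± 0.09 (adjusted p = 0.13) and the anti-apoptotic Mcl1 at -0.30 ± 0.09 (adjusted p = 0.129). Targets of p53, which include Tnfrsf10b and Fas in many cells, had 6 of 12 above 0 (median -0.06). Of these, the nuclease gene Aen was at 0.24 ± 0.10 and Mdm2, the p53 ubiquitin ligase, at -0.32 ± 0.14, and Perp, which is also abundant in skin, was at 1.86 ± 1.02 with 26.1 FPKM in its highest palbociclib tumor. Targets of NF-kB had 3 of 9 above 0 (median -0.07), with Nfkbia, the NF-kB inhibitor, at -0.89 ± 0.25, Icam1, an adhesion molecule, at 1.18 ± 0.38 and Cxcl1, a chemokine that draws neutrophils, at -1.60 ± 0.55. The lists overlap in regulation, and genes within a list are not replicates.

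**Figure D4:**
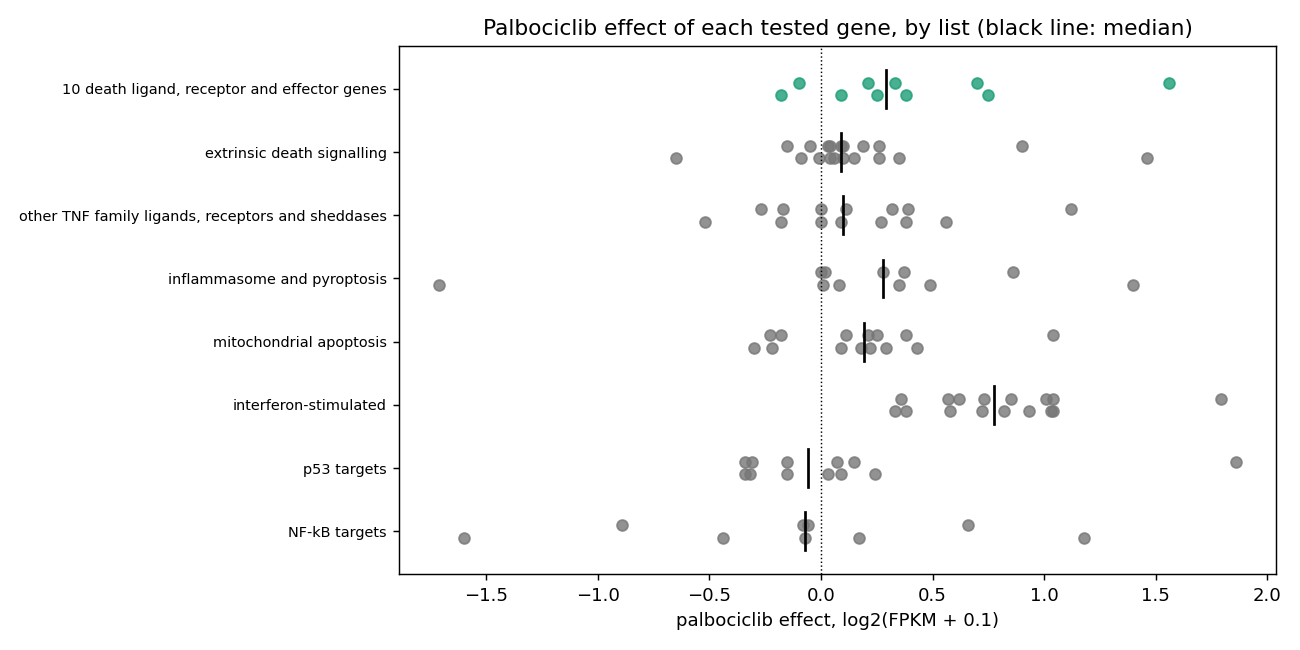
Palbociclib effect on log2(FPKM + 0.1) of each tested gene (dots), with the 10 death ligand, receptor and effector genes on top and the pathway lists below, and black lines at the medians. The medians are 0.29 for the 10 genes and 0.77 for the interferon-stimulated list, and lie between -0.07 and 0.28 for the others.

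Among the 11186 genes whose mean reached 1 FPKM, those most like each of the 10 were found by Pearson's r of log2(FPKM + 0.1) over the 12 tumors, given as a description. With so many genes and only 12 tumors, the highest r of a search is high even among unrelated genes. How high it would run was not computed, so no shared function is read from these names. The tumors share arms, so r for deviations from the arm means is also given, gene by gene for Tnfsf10 and Mlkl. For the genes most like the rest of the 10 it ran from 0.77 to 0.97 within arms. The genes most like Tnfsf10 were Parp11 (r = 0.98, 0.91 within arms), Zbp1 (r = 0.97, 0.94 within arms) and Irgm1 (r = 0.96, 0.88 within arms). Parp11 encodes a mono-ADP-ribosyltransferase and Irgm1 an interferon-inducible GTPase.

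For Tnf they were Ncf4 (r = 0.95), a subunit of the phagocyte oxidase, Tgfbi (r = 0.95), and Lcp2 (r = 0.93), an adaptor of leukocyte receptors. For Casp8 they were Kif18a, Scpep1 and Dnaaf2 (r = 0.94 each), and for Casp1 Ddt (r = 0.92), Ubl3 (r = 0.89) and Casp12 (r = 0.89), which is a neighboring caspase gene of the same family. Tnfrsf1b was most like H2-K1 (r = 0.88), which encodes an MHC class I heavy chain, Pik3ap1 (r = 0.87) and Arhgap25 (r = 0.86). Fas was most like Zfp87 (r = 0.91), Nupr1 (r = 0.88) and Grem1 (r = 0.88), and Fasl like Hsd17b11 (r = 0.91), Dirc2 (r = 0.87) and Slc39a1-ps (r = 0.87). Tnfrsf10b was most like Smc3 (r = 0.89), a cohesin subunit, Plcb3 (r = 0.88) and Patl1 (r = 0.87), and Tnfrsf1a like Tmbim4 (r = 0.88), Arfgap1 (r = 0.85) and Ralgds (r = 0.85). Mlkl was most like Plac8 (r = 0.88, 0.76 within arms), Coa5 (r = 0.87, 0.62 within arms) and Haus5 (r = 0.87, 0.39 within arms).

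Among the 10 genes themselves the highest r was between Tnfsf10 and Casp8 (r = 0.85, 0.66 within arms), followed by Casp8 and Mlkl (r = 0.82, 0.48 within arms). Tnfsf10 and its receptor Tnfrsf10b had r = -0.55 over the 12 tumors and r = 0.03 within arms. The lowest r of a pair was between Tnfrsf10b and Fasl (r = -0.70, -0.71 within arms). Fasl and Fas had r = -0.16 (-0.15 within arms). Tnf had r = 0.53 with Tnfrsf1a (0.45 within arms) and r = 0.65 with Tnfrsf1b (0.65 within arms).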

How the data were processed

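Total RNA of 12 tumors, 3 per arm, was sequenced on an Illumina NovaSeq. The authors deposited 1 table of FPKM values per tumor, with 34745 entries each. HISAT2 and GRCm38 (mm10) are named in the submitters' processing notes, and the counting tool and annotation are not given in the sources used here. FPKM is relative to each library, so a large change in a few abundant genes shifts the rest. For 67 entries that repeat a symbol the entry with the highest mean was kept, giving 34678 symbols, of which 22912 were above 0 in a tumor. Testing took in the 15350 genes whose mean reached 0.1 FPKM and used limma 3.58.1 in R 4.3.3 on log2(FPKM + 0.1), as lmFit with 1 mean per arm and eBayes with trend, two-sided, with Benjamini-Hochberg adjustment and a threshold of 0.05. FPKM are not counts, so no count model was used. The fit was tried on simulated data with independent noise for each gene. With 200 genes changed by 1 or 2 on the log2 scale, 151 and 181 were called for the palbociclib effect, beside 4 and 7 false calls. Variation that the genes of a tumor share was not simulated, so its bearing on the calls cannot be read from this.

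The 10 genes, the pathway lists and the marker lists were chosen with earlier results of these data known. All 10 genes are named. From each pathway list the called genes were named, or otherwise the 3 with the smallest p for the palbociclib effect, and Fadd, Ripk1, Ripk3, Cflar, Tnfaip3, Il1b, Bcl2a1b and Nlrp3 were added after their values were seen. A few genes that this rule names are not reported here. The 3 genes most like each of the 10 were found by Pearson's r. Positions come from GENCODE M21 and promoters from RefSeq. Other pseudocounts, filters, scalings, sets of arms and tumors left out were tried. Python 3.11.15, numpy 2.4.6, pandas 2.3.3, scipy 1.17.1 and matplotlib 3.10.9 were used. Deviations from the arm means had r from -0.21 to 0.45 between same-numbered tumors of different arms (18 pairs, mean 0.04, 7 over 0.1). Between different-numbered tumors r ran from -0.35 to 0.31 (36 pairs, mean -0.02, 9 over 0.1). Replicate numbers were not used as pairs, and whether they pair the tumors is not known.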

Additional observations from a re-analysis of the deposited data

How the results depend on the processing

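With 3 tumors per arm, the numbers of calls moved with the processing. The direction of the Tnfsf10 difference held under all alternatives run, from 1.34 to 2.37 for palbociclib against vehicle and 0.95 to 1.69 for the palbociclib effect. It was no longer called for palbociclib against vehicle with no filter (adjusted p = 0.0537), quantile normalization (0.0619), eBayes without trend (0.0669) or only the arms compared (0.148), and for the palbociclib effect with no filter (0.0649) or without trend (0.0543), all in limma. There 0 of the 10 genes were called.

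The number of genes called for palbociclib against vehicle (22) became 34 after rescaling to TPM, 1 after quantile normalization, 6 without trend and 0 with only the arms compared. For anti-PD-1 against vehicle (0) it was 1 with no filter. For combination against vehicle (2) it was 5 with a pseudocount of 0.01, 1 without trend and 0 with only the arms compared. For combination against anti-PD-1 (1) it was 2 with no filter and 0 with only the arms compared. For combination against palbociclib (1) it was 2 with a filter at 1, 5 with no filter, 2 after rescaling to TPM and 0 with only the arms compared. For the palbociclib effect (48) it was 11 with no filter and 0 without trend. For the interaction (0) it was 1 with a pseudocount of 0.01, 2 with a filter at 1, 7 with no filter, 1 as TPM and 2 after quantile normalization. The causes were not tested.

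With the replicate number as a block, the counts were 51 for palbociclib against vehicle, 1 for combination against vehicle and 129 for the palbociclib effect, and the replicate block changed no call among the 10 genes. Whether the numbers pair the tumors is not known.

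Leaving out each tumor in turn gave 1 to 46 genes called for palbociclib against vehicle (0 to 1 of the 10 genes), 0 to 1 for anti-PD-1 against vehicle (0 to 0), 0 to 5 for combination against vehicle (0 to 0), 0 to 6 for combination against anti-PD-1 (0 to 0), 1 to 4 for combination against palbociclib (0 to 0), 0 to 758 for the palbociclib effect (0 to 2) and 0 to 3 for the interaction (0 to 0). The 758 came without anti-PD-1 replicate 1, and 692 without vehicle replicate 1. Fasl has no value under the filter at 1. Depth limits Fasl most, with 227 fragments over all 12 tumors.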
